A study of Mus musculus with 28 samples.

Results

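The urea cycle was followed through 9 of its genes, taken by name from the 23712 genes of the dataset: the acetylglutamate synthase Nags, the enzymes Cps1, Otc, Ass1, Asl and Arg1, the second arginase Arg2, and the mitochondrial carriers Slc25a15 and Slc25a13. All 9 passed the filter on low counts and were among the 16499 genes tested. Otc passed it through adult hepatocytes alone, and Arg2 through iHep_Foxa1 and iHep_Foxa2 alone, so for these genes a difference involving those groups was built into the filter. Transcript levels came from RNA sequencing of 28 mouse libraries in 9 groups.

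The urea cycle turns toxic ammonium into urea, and in mammals the whole cycle runs mainly in the hepatocytes around the portal vein. Nags makes N-acetylglutamate, the activator without which Cps1 does not work. Cps1 and Otc act inside mitochondria and yield citrulline, which Slc25a15 exchanges for ornithine across the inner membrane. In the cytosol Ass1 joins citrulline to aspartate, Asl splits off fumarate to leave arginine, and Arg1 cleaves arginine to urea and ornithine. Slc25a13, also called citrin, exports the aspartate that Ass1 uses. Arg2 is a mitochondrial arginase found outside the liver cycle. Ass1 and Asl are also known in many other cells, where they remake arginine, and Cps1, Otc and Nags are known in small intestine.

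All cells were labelled C57BL/6. MEF were embryonic fibroblasts prepared 13.5 days post coitum, sequenced in 2 libraries, and Hep were hepatocytes freed by collagenase from livers of 10-week-old mice, also in 2 libraries. Every other group was made from fibroblasts given retroviral vectors (pGCDNsam backbone) that carried Hnf4alpha and 1 Foxa factor. Foxa and Hnf4alpha are liver transcription factors, and the pair is known to turn fibroblasts into induced hepatocyte-like cells, called iHep. The groups 48h_Foxa1, 48h_Foxa2 and 48h_Foxa3 were taken 48 h after transduction, in 2 libraries each. The groups iHep_Foxa1, iHep_Foxa2 and iHep_Foxa3 were cultured iHep cells in 6, 4 and 6 libraries. Foxa3del2 carried a Foxa3 mutant named del2 with Hnf4alpha, in 2 libraries. Titles put these 2 libraries at 48 h, another label gives their stage as iHep and the design text calls such cells iMEFs, so the stage is not settled. Whether replicates are separate cultures, clones or animals is not stated, so p-values measure only the spread between these libraries. No library of fibroblasts given virus without the factors was used here, so the factors and the transduction cannot be told apart.

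Libraries held 14592820 to 51743266 assigned reads, with the fewest in Hep. The labelled cell types were checked against marker genes: 8 hepatocyte markers summed to 212700 to 229800 CPM (counts scaled to library size) in Hep and to at most 16.3 CPM in MEF. In iHep the same sum was 2526 to 34890 CPM. Of the 8, the number averaging over 1 CPM was 8 in iHep_Foxa1, 7 in iHep_Foxa2, 6 in iHep_Foxa3 and 3 in MEF. Alb was at 3.04 to 1683 CPM in the iHep libraries, against 7.81 and 8.52 CPM in MEF. The 6 fibroblast markers, at 37200 to 38440 CPM in MEF, summed to 20.8 to 407 CPM in iHep. The level of the noncoding RNA Rn7sk split the libraries into a high library set, of all 48 h libraries of the unmutated factors, iHep_Foxa1 replicates 4 to 6 and iHep_Foxa3 replicates 2 to 6, and a low set of all the rest. What made the sets differ is not stated. The 48 h groups and MEF lie wholly in different sets, as do Foxa3del2 and 48h_Foxa3, and iHep_Foxa2 and 48h_Foxa2, so set and group cannot be told apart there.

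Adult hepatocytes held all enzymes of the cycle at high levels. In FPKM, which divides by transcript length and so can be compared between genes, mean levels over the 2 Hep libraries were 2517 ± 199 (SD) for Ass1, 1156 ± 13.1 for Arg1, 992 ± 235 for Cps1, 307 ± 38.9 for Asl and 268 ± 45.6 for Otc. The carrier Slc25a15 stood at 196 ± 13.1 FPKM, Slc25a13 at 60.8 ± 1.43 and Nags at 36.2 ± 1.72. Arg2 was near absent there, at 0.115 ± 0.0919 FPKM, from 5 counts in all. Arg2 therefore made up only 0.0043% and 0.016% of the arginase FPKM of the 2 Hep libraries.

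Fibroblasts divided the members into 2 kinds. Cps1, which commits ammonium to the cycle, was at 0.575 and 0.761 CPM in the 2 MEF libraries against 10450 and 7061 CPM in Hep. Otc was at 0.0958 and 0.190 CPM in MEF against 1023 and 1235 CPM in Hep. Arg1 was at 0.239 and 0.476 CPM in MEF against 3275 and 3154 CPM in Hep. For these 3 genes the MEF mean was 0.0076%, 0.013% and 0.011% of the Hep mean, beside 0.0045% to 0.011% for the 8 hepatocyte markers, Alb among them at 0.0058%. Nags had 2 counts in MEF.

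Ass1, Asl and both carriers were clearly present in fibroblasts. Ass1, at 322 and 163 CPM, was the most abundant member in MEF and made up 93.7% of the summed FPKM of Cps1, Otc, Ass1, Asl and Arg1. Asl was at 15.8 and 14.6 CPM, Slc25a15 at 29.1 and 26.4 CPM, and Slc25a13 at 16.3 and 9.71 CPM. Their MEF means were 3.16%, 1.66%, 2.18% and 3.66% of the Hep mean. CPM is scaled here by the trimmed mean of M values (TMM), a step that the deposited FPKM values do not have, and on FPKM the same shares were 5.58%, 2.95%, 3.86% and 6.45%.

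**Figure D1:**
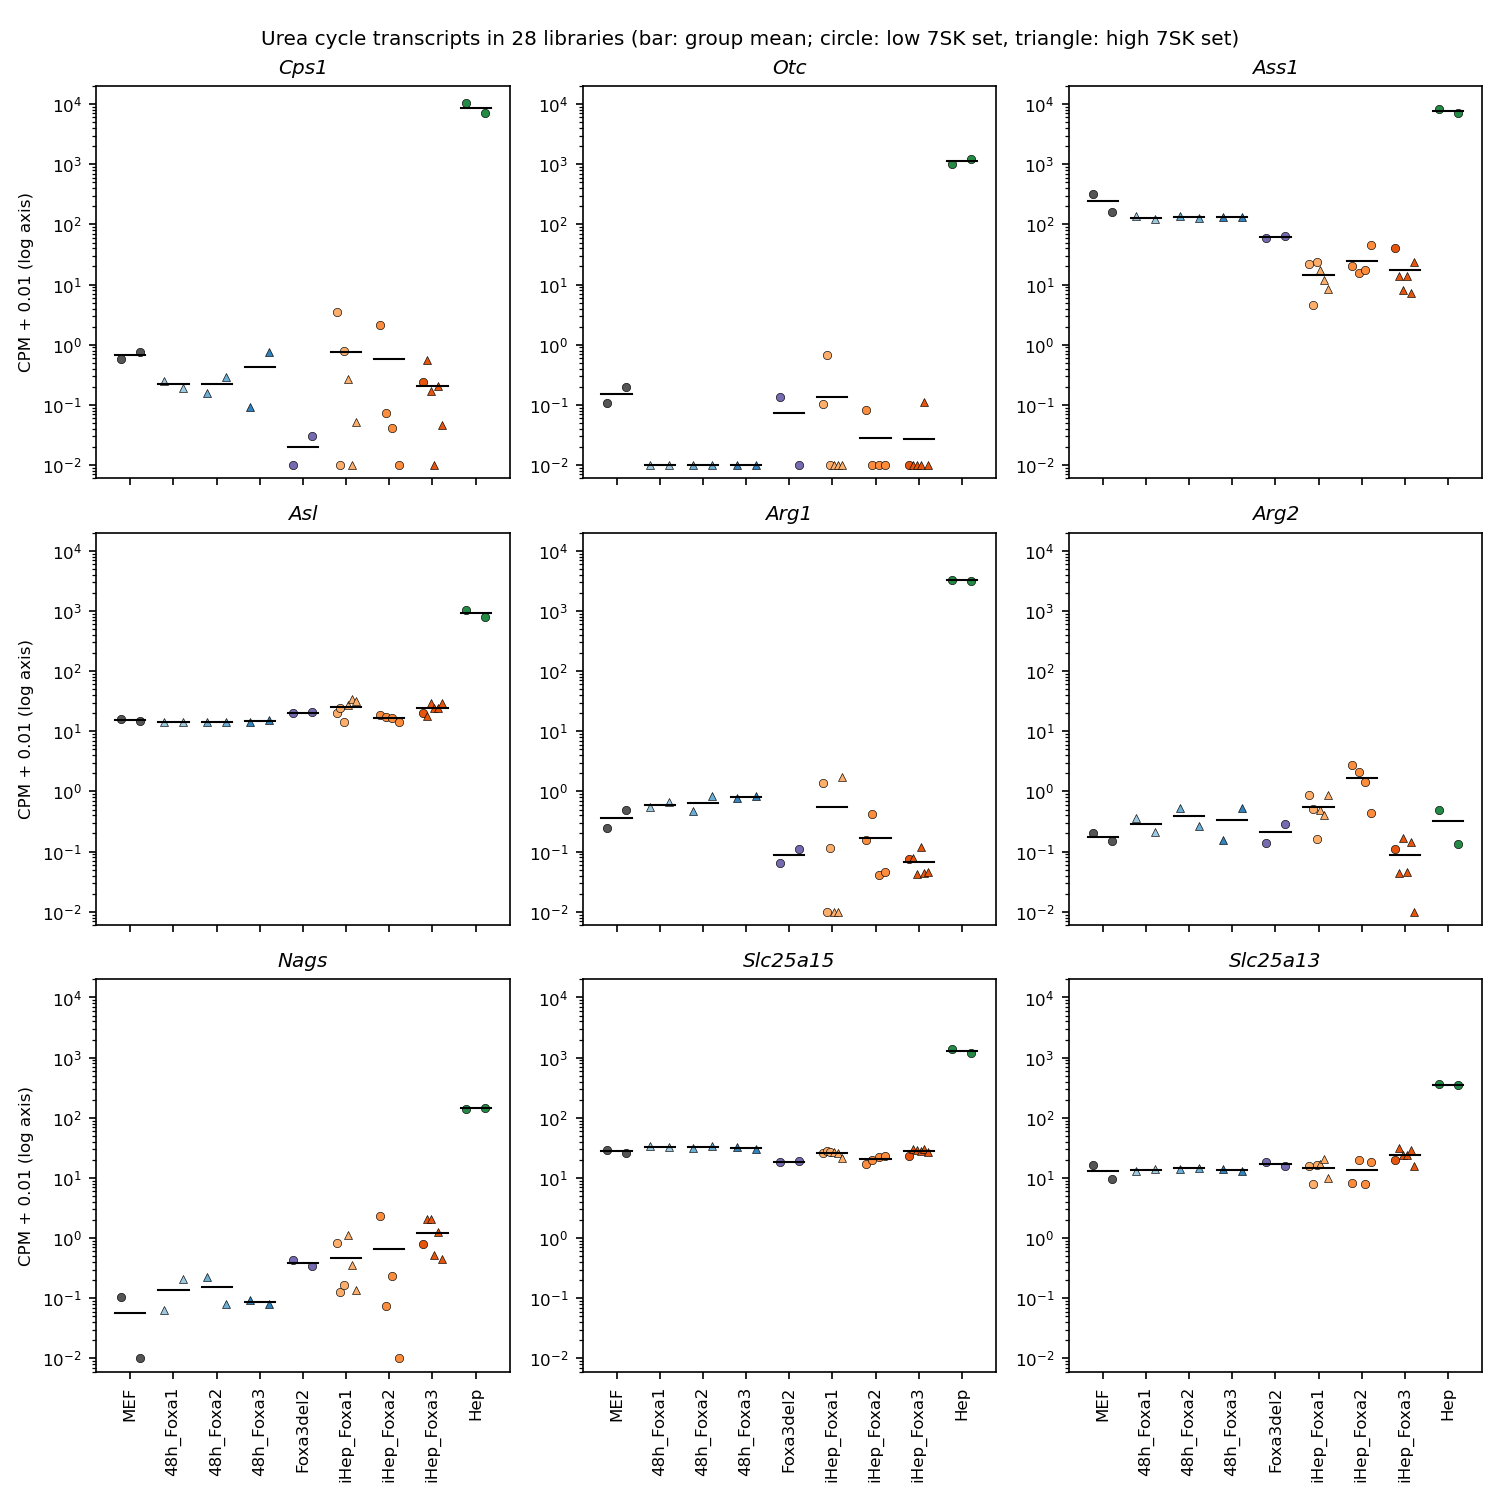
Level of each of the 9 members in every library, as CPM + 0.01 on a log axis, by group, with bars at group means and marker shape for library set. Cps1, Otc and Arg1 reach 1023 CPM or more in both Hep libraries and stay at or below 3.44 CPM in every other library, while Ass1, Asl, Slc25a15 and Slc25a13 are present in all groups.

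Promoters are shown for Otc and Nags, low in fibroblasts, and for Ass1, the most abundant member there. RefSeq start site windows (build GRCm38.p6, 250 bases before the start to 50 after) were given for 5 members, in 6 windows. Cps1, Asl, Arg1 and Arg2 had none. The 250 bases before the start of Otc (chrX:10252055-10252304, plus strand), of Nags (chr11:102145263-102145512, plus strand) and of Ass1 (chr2:31470020-31470269, plus strand) read as follows, with CG pairs in capitals.
Otc: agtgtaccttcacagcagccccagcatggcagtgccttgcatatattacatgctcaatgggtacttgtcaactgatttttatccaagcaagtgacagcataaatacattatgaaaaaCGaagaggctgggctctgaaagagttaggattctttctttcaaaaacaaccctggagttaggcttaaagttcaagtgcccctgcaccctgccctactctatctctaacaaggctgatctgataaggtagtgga
Nags: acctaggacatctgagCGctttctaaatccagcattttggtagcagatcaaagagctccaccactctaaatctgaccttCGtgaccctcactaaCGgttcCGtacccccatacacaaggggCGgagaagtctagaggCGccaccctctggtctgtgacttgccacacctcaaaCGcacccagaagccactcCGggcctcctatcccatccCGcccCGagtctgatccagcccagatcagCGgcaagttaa
Ass1: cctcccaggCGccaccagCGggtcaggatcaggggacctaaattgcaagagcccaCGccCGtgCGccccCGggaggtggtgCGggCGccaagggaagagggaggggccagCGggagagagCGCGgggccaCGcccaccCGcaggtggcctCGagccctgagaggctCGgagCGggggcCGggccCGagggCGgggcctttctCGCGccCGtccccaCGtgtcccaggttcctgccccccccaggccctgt

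Over the 300 bases of each window, Otc held 1 CG pair, Nags 14 and Ass1 27, where the median of all 32851 windows was 7. The GC content was 44.3% for Otc, 57.7% for Nags and 74.0% for Ass1, and 14.1% of all windows had as few CG pairs as Otc. Slc25a13 held 17 CG pairs, and the 2 start sites of Slc25a15 held 15 and 51. The members found in fibroblasts thus held 15 or more and Otc 1, with Nags, low in fibroblasts, at 14. The HNF4 forms CAAAGTCCA, CAAAGTTCA and CAAAGGTCA, sought on both strands, occur in 1.33% of all windows. Of the FOX forms, TGTTTAC occurs in 3.65% of windows, the form TATTTAC in 3.04% and the form TGTTTGC in 5.07%, and any of them in 11.2%. None of the 6 member windows held any of these letters.

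Hep against MEF fixed the scale of the liver program. Of the 9 members, 8 were higher in Hep and none lower, where 56.9% of all genes tested were called in either direction and 24.3% as higher (edgeR quasi-likelihood F test, Benjamini-Hochberg adjusted p under 0.05 over all genes tested, 2-sided). Otc, among the 8, passed the filter on low counts through Hep alone, so its call was favoured in advance. The median log2 fold change was 5.91 over the members and -0.29 over all genes tested. The log2 fold changes were 13.67 ± 2.37 (SE) for Cps1 (adjusted p = 4.3e-05), 13.12 ± 1.60 for Arg1 (4.8e-07), 12.91 ± 1.36 for Otc (1.8e-07), 5.91 ± 0.35 for Asl (1.1e-11) and 4.99 ± 0.82 for Ass1 (2.2e-05). Slc25a15 was 45.9-fold and Asl 60.1-fold higher. The 8 calls held under every alternative tried that gave a value. Arg2 was not called (0.87 ± 1.14, adjusted p = 0.54), with overlapping libraries. These are bulk libraries, in which fewer cells of a type and less RNA per cell cannot be told apart. Macrophages, a known site of arginases, had markers in both groups. Of 8 macrophage markers 7 were in the data, all over 1 CPM on average in Hep and in MEF. They summed to 217 to 257 CPM in Hep and to 28.1 and 324 CPM in MEF. The part of macrophages in these values was not tested.

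At 48 h no member was called against MEF with any factor, where 5.25%, 5.48% and 5.21% of all genes tested were called for Foxa1, Foxa2 and Foxa3. The count was also 0 at an unadjusted p under 0.05. It was 0 by the DESeq2 Wald test too, where 12.7%, 12.7% and 12.5% of all genes tested were called. The delivered factor itself was high by then, Hnf4a standing at 67.2 ± 15.4, 72.5 ± 11.2 and 81.3 ± 8.18 CPM against 0.0952 ± 0.135 CPM in MEF. Otc had 0 counts in all 6 of these libraries, which allows up to 0.033 to 0.037 CPM in a group at 3 counts, for counting error only. Ass1 was at 124 to 139 CPM in the 6 libraries, below both MEF libraries, which differed widely from each other, with log2 fold changes of -0.90 ± 0.70, -0.86 ± 0.70 and -0.88 ± 0.70 (adjusted p = 0.46, 0.48 and 0.47). Asl was at 14.2 to 15.2 CPM, Slc25a15 at 30.6 to 34.1 CPM and Slc25a13 at 13.1 to 14.6 CPM. The 3 comparisons share the MEF libraries.

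In iHep cells the cycle's transcripts stayed far below the hepatocyte level. The comparison asks how far each Foxa factor with Hnf4alpha carried fibroblasts toward hepatocytes. The summed FPKM of Cps1, Otc, Ass1, Asl and Arg1 was 5534 and 4948 in Hep, 195 and 105 in MEF and 93.5 to 104 at 48 h. In iHep_Foxa1 it was 18.0 to 29.3, in iHep_Foxa2 20.9 to 40.0 and in iHep_Foxa3 20.5 to 39.3. All 16 iHep libraries were thus below every MEF and 48 h library. Ass1 made up 93.7% of the sum in MEF and 89.0% to 89.6% at 48 h, so this order mostly reflects Ass1 and not the whole cycle. The iHep group means of the sum were 0.50%, 0.52% and 0.52% of the Hep mean, and the MEF mean 2.86%.

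**Figure D2:**
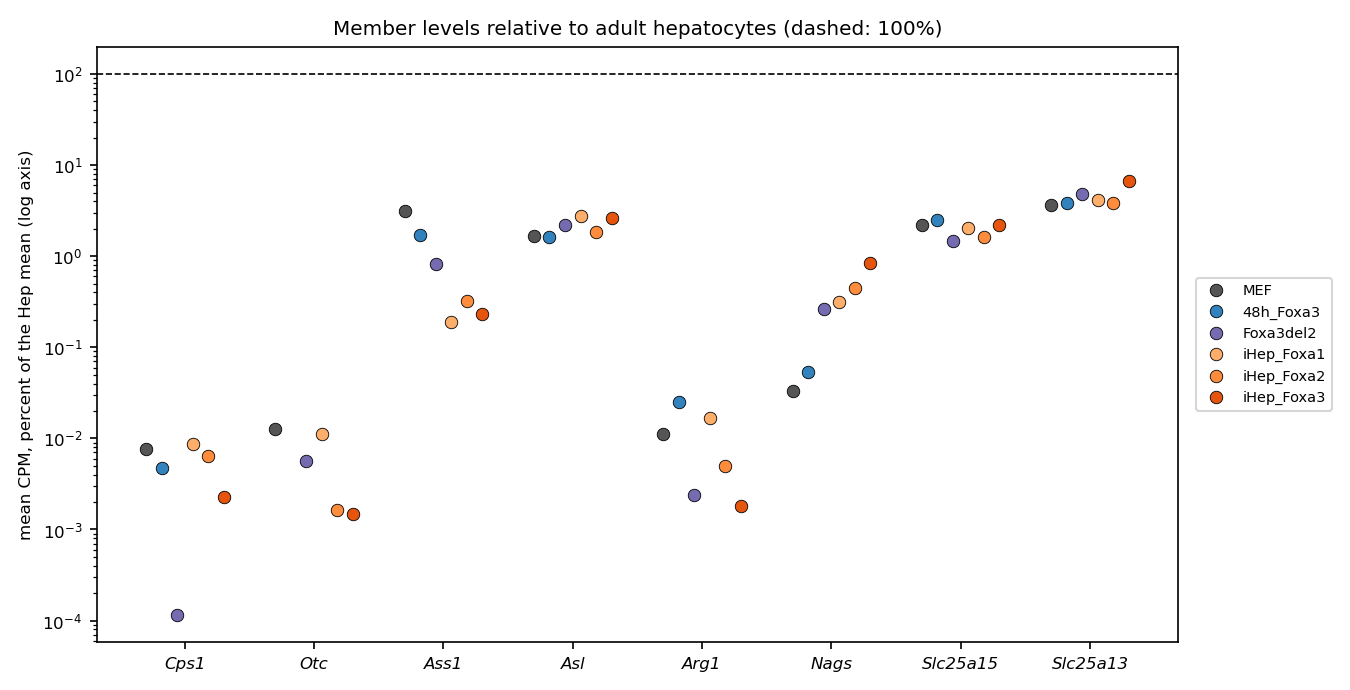
Group mean CPM of 8 members as a percent of the Hep mean, on a log axis, for MEF, 48h_Foxa3, Foxa3del2 and the 3 iHep groups, with a dashed line at 100% and no point where no read was counted. On this TMM-scaled CPM every group mean lies below 7% of Hep, Slc25a13 in iHep_Foxa3 being the highest at 6.75%. Cps1, Otc and Arg1 lie below 0.03%.

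Against Hep, 8 members were lower with each factor, where 60.1%, 60.6% and 61.9% of all genes were called and 24.8%, 25.4% and 26.7% called as lower. Otc is again among the 8 and passed the filter through Hep alone. The median log2 fold change over the members was -8.27, -7.80 and -6.90, against 0.42, 0.42 and 0.39 over all genes. The log2 fold change of Cps1 was -13.41 ± 1.39 with Foxa1, -13.95 ± 1.71 with Foxa2 and -15.40 ± 1.5 with Foxa3 (adjusted p = 3e-08, 4e-07 and 9.8e-09). Ass1 was 525-, 313- and 434-fold lower, Nags 309-, 224- and 119.5-fold lower, and Asl 35.9-, 54.8- and 37.7-fold lower. Slc25a13 was the least distant, 24.2-, 26.2- and 14.8-fold lower. Its iHep means were 4.14%, 3.81% and 6.75% of Hep on CPM. On FPKM, which lacks the TMM scaling, they were 7.97%, 7.47% and 13.3%. These 24 calls held under every alternative tried that gave a value. Car5a, which supplies bicarbonate to Cps1, was at 117 ± 5.74 CPM in Hep and at 0.387 ± 0.171, 0.340 ± 0.0502 and 0.382 ± 0.135 CPM in the iHep groups.

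Cps1 and Otc stayed near the fibroblast level in iHep. Cps1 was at 0 to 3.44 CPM in iHep_Foxa1 (median 0.151), at 0 to 2.15 CPM in iHep_Foxa2 (2.15, 0.0644, 0.0315 and 0 CPM) and at 0 to 0.551 CPM in iHep_Foxa3 (median 0.180). Otc had 0 counts in 4 of 6, 3 of 4 and 5 of 6 libraries of these groups, and its highest value was 0.667 CPM, in iHep_Foxa1 replicate 2. Neither gene was called against MEF or 48 h cells with any factor. Hnf4a rose against MEF in the same cells, and against 48 h cells with Foxa1 and Foxa3 but not with Foxa2, to 367 ± 193, 189 ± 124 and 865 ± 340 CPM, the vector's own copy included as far as its reads were counted.

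Ass1, the member most abundant in fibroblasts, fell. In iHep_Foxa1 it was at 4.55 to 23.9 CPM (median 14.7), in iHep_Foxa2 at 20.4, 15.8, 17.3 and 44.8 CPM, and in iHep_Foxa3 at 7.15 to 40.1 CPM (median 13.8). No iHep library reached the lowest MEF library (163 CPM) or the lowest 48 h library (124 CPM). Against MEF the log2 fold change was -4.05 ± 0.52 with Foxa1 (16.6-fold lower, edgeR adjusted p = 2.7e-06), -3.30 ± 0.59 with Foxa2 (9.87-fold, 0.00019) and -3.78 ± 0.52 with Foxa3 (13.7-fold, 4.6e-06). Against 48 h cells of the same factor it was -3.15 ± 0.51 (5.1e-05), -2.44 ± 0.58 (0.0023) and -2.89 ± 0.51 (0.00011), the Foxa2 groups lying in different library sets. The change from 48 h to iHep did not differ between the factors beyond its error (Foxa1 minus Foxa2 -0.71 ± 0.83, Foxa1 minus Foxa3 -0.26 ± 0.80, Foxa2 minus Foxa3 0.45 ± 0.83). The 3 factors share the MEF libraries.

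Ass1 fell in each library set, with 1 exception in the call. Within iHep_Foxa1 it averaged 16.7 CPM in the low set and 12.6 CPM in the high set, 3 libraries each. In the low set alone, which holds 1 iHep_Foxa3 library at 40.1 CPM, the Foxa3 change against MEF was -2.63 with an adjusted p of 0.075, and the other Ass1 falls kept their calls in every alternative that gave a value. Endothelium and macrophages are known sites of Ass1 and arginases. The 6 endothelial markers summed to 39.4 to 60.3 CPM in MEF (Cdh5 at 0 counts) and 0.315 to 16.3 CPM in iHep. The 7 macrophage markers found summed to 28.1 and 324 CPM in the 2 MEF libraries and 0.0784 to 4.82 CPM in iHep. Both sums were lower in iHep than in MEF. The endothelial marker Pecam1 was at 0 and 0.0476 CPM in MEF and at 0.0361 to 10.4 CPM in iHep. At 48 h the endothelial sum was 28.3 to 30.0 CPM and the macrophage sum 6.36 to 13.1 CPM. In Foxa3del2 the endothelial sum was 10.6 to 12.1 CPM and the macrophage sum 55.7 to 61.1 CPM. MEF replicate 2 had the higher macrophage sum and the lower Ass1 of the 2 MEF libraries. The part of these cells in the fall of Ass1 was not tested.

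The pseudogene Gm5424 is nearly a copy of the Ass1 transcript, with 1234 of 1240 aligned bases identical (99.5%), so reads of the pair could be split by the authors' counting. Its counts were 20.6% to 59.5% of those of Ass1 across the 28 libraries. With both added together, the log2 fold changes against MEF were -4.07, -3.28 and -3.77, and every Ass1 call remained as it was.

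**Figure D3:**
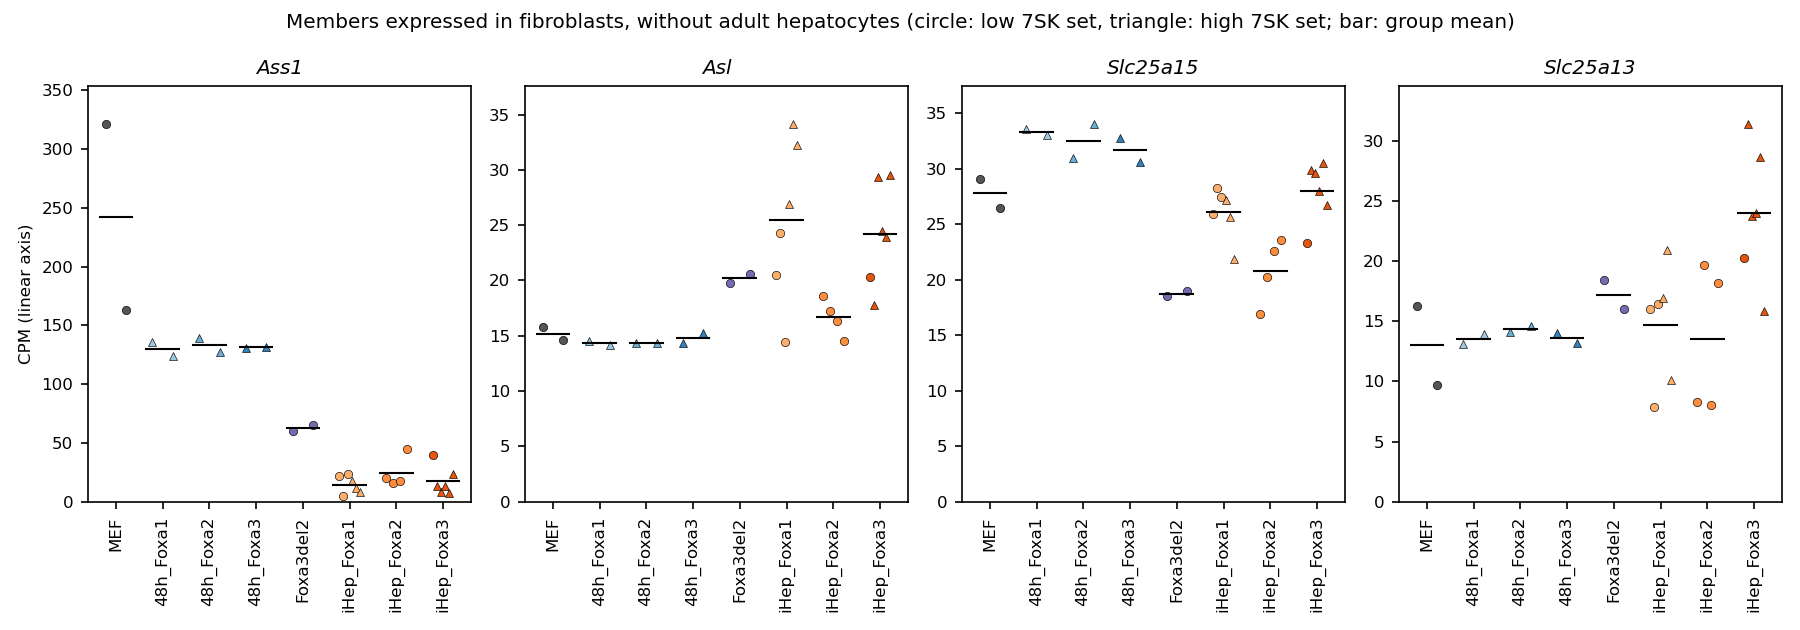
CPM of Ass1, Asl, Slc25a15 and Slc25a13 in every library except Hep, on linear axes from 0, with bars at group means, circles for the low and triangles for the high library set. Ass1 runs from 163 CPM or more in MEF to 44.8 CPM or less in iHep, while Asl spans 14.2 to 34.2 CPM over all 8 groups.

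Asl, the enzyme after Ass1, moved the other way by a small amount. It was at 14.5 to 34.2 CPM in iHep_Foxa1 (median 25.6), at 18.6, 17.3, 16.3 and 14.5 CPM in iHep_Foxa2, and at 17.8 to 29.6 CPM in iHep_Foxa3 (median 24.2). All 6 iHep_Foxa3 libraries exceeded both MEF libraries, and 5 of 6 iHep_Foxa1 libraries did. Against MEF it rose 1.67-fold with Foxa1 (0.74 ± 0.24, edgeR adjusted p = 0.018) and 1.59-fold with Foxa3 (0.67 ± 0.24, 0.026), and was not called with Foxa2 (0.13 ± 0.25, 0.73). Against 48 h cells it rose 1.77-fold with Foxa1 (0.83 ± 0.24, 0.0091) and 1.64-fold with Foxa3 (0.71 ± 0.24, 0.022).

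The Asl rise moved with the library set and rested on few control libraries. In iHep_Foxa1 it averaged 19.8 CPM (14.5 to 24.3) in the low set and 31.1 CPM (26.9 to 34.2) in the high set. With a term for the library set, Asl against MEF was 0.45 with Foxa1 (adjusted p = 0.082) and 0.23 with Foxa3 (0.42). Against 48 h cells the same term kept the calls with Foxa1 and Foxa3 and added one with Foxa2 (0.74, 0.024, where without the term it was 0.22 ± 0.25, 0.50). The 2 Foxa2 groups lie wholly in different sets, so the term there rests on the set difference seen in iHep_Foxa1 and iHep_Foxa3. The added call cannot separate set from group. Without MEF replicate 1 the adjusted p was 0.086 and 0.098, without MEF replicate 2 it was 0.14 and 0.16, and against 48 h cells it was 0.072 to 0.15 without either 48 h replicate. The replicate block ended both calls against MEF (0.09 and 0.11) and the Foxa3 call against 48 h (0.082), and fitting the compared groups alone ended all 4 (0.17, 0.053, 0.12 and 0.056).

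With Ass1 down and Asl not, the balance of the pair turned. The FPKM of Ass1 was 19.8 and 10.9 times that of Asl in the MEF libraries and 7.94 and 8.49 times in Hep. At 48 h it was 8.42 to 9.48 times. In iHep it was 0.182 to 1.61 times with Foxa1, 0.891 to 3.01 times with Foxa2 and 0.265 to 1.93 times with Foxa3, below all other groups but touching Foxa3del2 at 2.98 and 3.08 times.

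**Figure D4:**
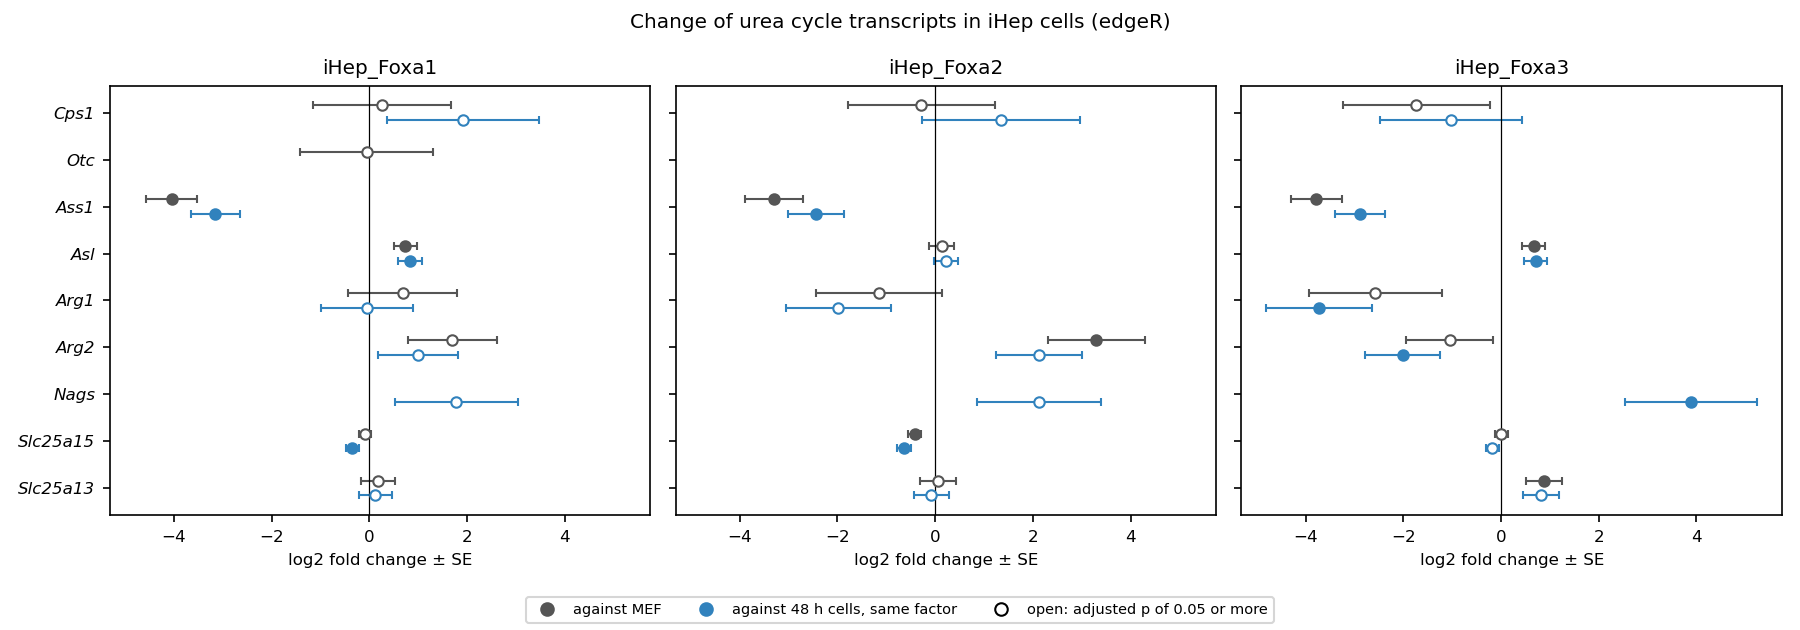
Log2 fold change of each member in the 3 iHep groups against MEF (grey) and against 48 h cells of the same factor (blue), with bars of 1 SE and filled points where the adjusted p was under 0.05. No point is drawn where either group had 3 counts or fewer. Ass1 is the member called in all 6 comparisons, at -4.05 to -2.44.

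Across the remaining members the calls were few. Against MEF, 2 members were called with Foxa1 (Asl higher, Ass1 lower), 3 with Foxa2 (Arg2 higher, Ass1 and Slc25a15 lower) and 4 with Foxa3 (Asl, Nags and Slc25a13 higher, Ass1 lower), where 39.9%, 30.7% and 46.6% of all genes were called. Against 48 h cells the counts were 3 (Asl higher, Ass1 and Slc25a15 lower), 2 (Ass1 and Slc25a15 lower) and 5 (Asl and Nags higher, Ass1, Arg1 and Arg2 lower), where 42.0%, 40.1% and 40.6% were called. Apart from the 5 of 9 with Foxa3 against 48 h cells, these counts lie near or below the share of all genes called.

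The arginases differed between factors at very low levels. Arg1 was at 0.534 to 0.836 CPM in 5 of the 6 libraries at 48 h and at 0.468 CPM in the sixth. In iHep_Foxa3 it was at 0.0322 to 0.109 CPM, from 10 counts over 6 libraries, below every 48 h library. It fell 13.2-fold from 48h_Foxa3 (-3.73 ± 1.08, edgeR adjusted p = 0.0083). In iHep_Foxa2 Arg1 was at 0.146, 0.419, 0.0315 and 0.0357 CPM, also below every 48 h library. There it was not called against 48h_Foxa2 (-1.98 ± 1.08, edgeR adjusted p = 0.15) or against iHep_Foxa3 (1.42 ± 1.22, 0.39). In iHep_Foxa1, 3 of 6 libraries had 0 counts, replicate 3 had 0.103 CPM, and replicates 1 and 6 had 1.39 and 1.76 CPM. The difference between iHep_Foxa1 and iHep_Foxa3 (3.25 ± 0.96, adjusted p = 0.039, where 8.32% of all genes were called) rested on those 2 libraries: without iHep_Foxa1 replicate 1 its adjusted p was 0.11, and without replicate 6 it was 0.10. It also ended without iHep_Foxa3 replicate 2, 3, 4, 5 or 6 (0.061 to 0.078), with limma (0.25), with the replicate block (0.051), in either library set alone (0.54 and 0.07) and with the compared groups alone (0.23).

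Arg2 passed the filter on low counts through iHep_Foxa1 and iHep_Foxa2 alone. Its calls as higher in these groups, here and below, were thus favoured in advance. Arg2 had its highest group mean in iHep_Foxa2, where it was at 2.77, 2.09, 1.45 and 0.429 CPM, all above both MEF libraries (0.191 and 0.143 CPM). In iHep_Foxa1 it was at 0.155 to 0.879 CPM (median 0.494) and in iHep_Foxa3 at 0 to 0.161 CPM (median 0.0678). Each iHep_Foxa2 library exceeded each iHep_Foxa3 library, a 20.5-fold difference (4.36 ± 0.66, adjusted p = 0.00026, where 31.1% of all genes were called). The call ended in the low library set alone (4.05, 0.17), which holds 1 iHep_Foxa3 library. Against iHep_Foxa3, Arg2 was also 6.76-fold higher in iHep_Foxa1 (2.76 ± 0.62, 0.011), a call that ended with limma on log2(FPKM + 1) (0.39, 0.089), in the low set alone (2.35, 0.45) and with the compared groups alone (2.77, 0.093).

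Against MEF, Arg2 rose 9.88-fold in iHep_Foxa2 (3.30 ± 0.99, adjusted p = 0.014), with 7 counts in all in MEF, and the call ended without MEF replicate 1 (0.089) or replicate 2 (0.12). Against Hep it was 5.42-fold higher (2.44 ± 0.99, 0.038), from 5 counts in Hep, with an adjusted p of 0.053 without Hep replicate 1, 0.26 without Hep replicate 2, 0.081 without iHep_Foxa2 replicate 1, 0.06 without iHep_Foxa2 replicate 2 and 0.059 with DESeq2's size factors. Its fall from 48h_Foxa3 to iHep_Foxa3 (-2.01 ± 0.77, 0.041) ended without 48h_Foxa3 replicate 2 (-0.87, 0.59) and without iHep_Foxa3 replicate 2, 4 or 6 (0.071, 0.07 and 0.061), with limma (0.38), with the replicate block (0.13) and with the compared groups alone (0.11). The change from 48 h to iHep differed between Foxa2 and Foxa3 by 4.13 ± 1.18 for Arg2 (unadjusted p = 0.0021, edgeR adjusted p = 0.29). No member was called in the 3 tests of such differences, where 0.0% of all genes were called, 0, 2 and 2 members had an unadjusted p under 0.05, and DESeq2 called Arg2 for Foxa2 against Foxa3. Exons of Arg2 overlap those of Vti1b on the opposite strand over 285 of 1428 bases, and whether the authors' counting used the strand is not stated. Vti1b was at 55.9 to 93.3 CPM in iHep_Foxa2 and at 41.8 to 103 CPM in iHep_Foxa3.

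**Figure D5:**
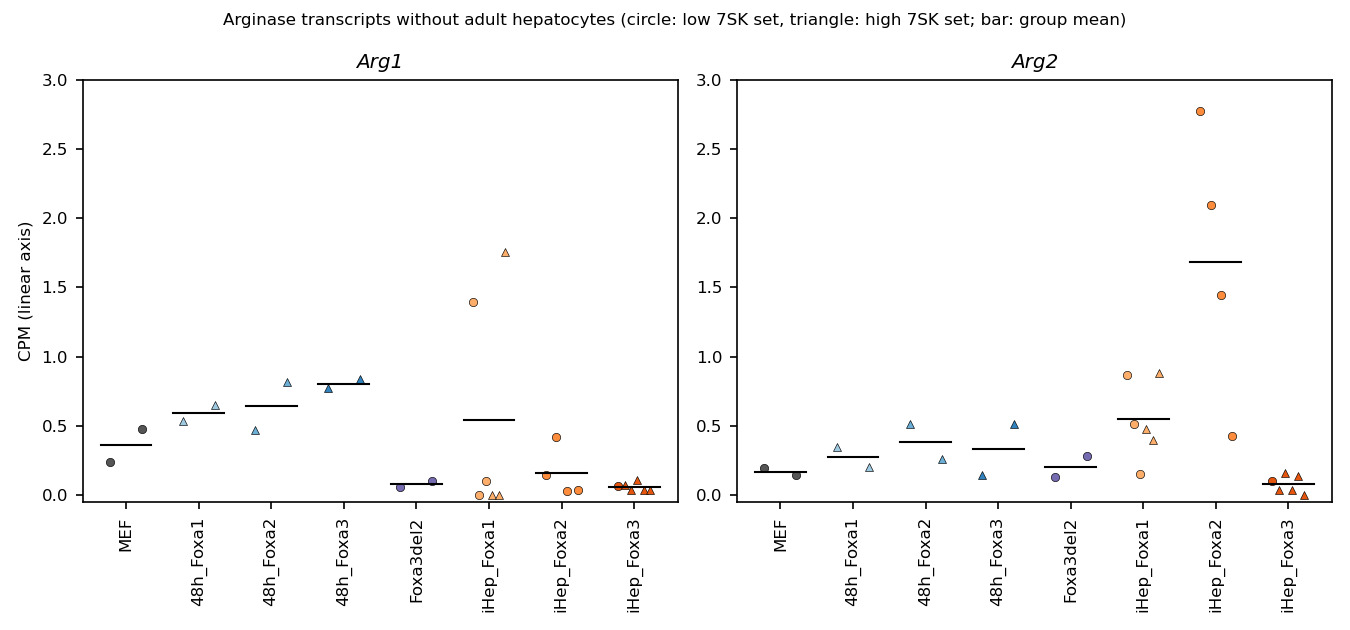
CPM of Arg1 and Arg2 in every library except Hep, on linear axes, with bars at group means, circles for the low and triangles for the high library set. Arg2 exceeds 1.4 CPM in 3 of 4 iHep_Foxa2 libraries and stays at or below 0.161 CPM in all iHep_Foxa3 libraries, and Arg1 exceeds 1 CPM in iHep_Foxa1 replicates 1 and 6 alone.

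Nags, which switches Cps1 on, rose with Foxa3. It was at 0.433 to 2.10 CPM in the 6 iHep_Foxa3 libraries (median 1.03), against 0.0837 and 0.0697 CPM in 48h_Foxa3 and 0.0958 and 0 CPM in MEF. All 6 lay above every MEF and 48 h library, and 14.8-fold above 48h_Foxa3 on average (3.89 ± 1.36, edgeR adjusted p = 0.027). It was also called against MEF (adjusted p = 0.03), with no fold given since MEF held 2 counts. The mean of 1.19 CPM was 0.832% of Hep. The call against 48 h ended without 48h_Foxa3 replicate 1 (0.15) or 2 (0.16), and with limma (0.055). That against MEF ended without MEF replicate 1 (0.084) or 2 (0.2), under the library set term (0.098) and in the low set alone (0.28). Nags shares 443 of 2838 exon bases with Gm11586 on the opposite strand. With Foxa1 Nags was at 0.118 to 1.13 CPM, and with Foxa2 at 2.30, 0.0644, 0.220 and 0 CPM, and neither was called. Small intestine, a known site of Nags and Cps1, had markers in iHep. Of 7 markers, 4 averaged over 1 CPM in each iHep group, with Sis at 0 counts in iHep_Foxa1 and iHep_Foxa2. The 7 summed to 62.3 to 3912 CPM in iHep and 109 to 113 CPM in Hep. In MEF they summed to 0.431 to 1.76 CPM and at 48 h to 2.07 to 2.65 CPM. Their part in the Nags values was not tested.

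The carriers differed by small amounts. Slc25a15, which brings ornithine into mitochondria, was at 16.9, 20.2, 22.6 and 23.6 CPM in iHep_Foxa2, below both MEF libraries and both 48h_Foxa2 libraries (31.0 and 34.1 CPM). It fell 1.56-fold from 48h_Foxa2 (-0.64 ± 0.14, adjusted p = 0.0011), in every alternative that gave a value, though set and group cannot be told apart in this comparison, and 1.34-fold from MEF (-0.42 ± 0.14, 0.028). The call against MEF ended without MEF replicate 1 (0.21) or 2 (0.073), without iHep_Foxa2 replicate 1 (0.084) or 2 (0.056), with limma (0.16) and with the compared groups alone (0.13). It fell 1.28-fold from 48h_Foxa1 to iHep_Foxa1 (-0.35 ± 0.13, 0.036), a call that ended without 48h_Foxa1 replicate 1 (0.17) or 2 (0.14), without iHep_Foxa1 replicate 6 (0.063) and with the compared groups alone (0.13). It was 1.35-fold lower in iHep_Foxa2 than in iHep_Foxa3 (-0.43 ± 0.11, 0.0063), which the library set term moved to an adjusted p of 0.075 and the low set alone to -0.15 (0.72).

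Slc25a13, which supplies aspartate to Ass1, was at 15.9 to 31.4 CPM in iHep_Foxa3 (median 23.9) against 16.3 and 9.71 CPM in MEF. It was called against MEF at the edge of the threshold (1.85-fold, 0.88 ± 0.36, adjusted p = 0.0497) and not against 48h_Foxa3 (0.82 ± 0.36, 0.073). The call against MEF ended in 12 of the alternatives, among them those without MEF replicate 1 (0.051) or 2 (0.39), without iHep_Foxa3 replicate 2, 3, 4 or 5 (0.062 to 0.082) and with DESeq2's size factors (0.069). It was 1.77-fold lower in iHep_Foxa2 than in iHep_Foxa3 (-0.82 ± 0.28, 0.029), a call that ended without iHep_Foxa2 replicate 1 (0.098) or 3 (0.1), without iHep_Foxa3 replicate 2 (0.057) or 5 (0.054), and with a term for the library set (0.35). Its 2 transcripts, which differ by 3 bases in length, kept an even share: NM_001177572 took 45.4% to 57.6% of the counts in all libraries.

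Between iHep groups, Asl was higher with Foxa1 than with Foxa2 (0.61 ± 0.19, adjusted p = 0.04, where 11.0% of all genes were called) and lower with Foxa2 than with Foxa3 (-0.54 ± 0.18, 0.032). With a term for the library set these were 0.31 (0.34) and -0.10 (0.81). The first ended without any of the 4 iHep_Foxa2 libraries (0.056 to 0.12) and without iHep_Foxa1 replicate 4, 5 or 6 (0.07 to 0.097), and the second without iHep_Foxa2 replicate 2, 3 or 4 (0.056 to 0.092) and without iHep_Foxa3 replicate 3 or 6 (0.067 and 0.068). Ass1, Cps1 and Otc were called in no comparison between iHep groups. Ass1 differed by -0.75 ± 0.45 between Foxa1 and Foxa2, -0.28 ± 0.40 between Foxa1 and Foxa3 and 0.47 ± 0.45 between Foxa2 and Foxa3.

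Foxa3del2 cells held Ass1 at 60.5 and 65.2 CPM, between the 48 h libraries (124 CPM or more) and the iHep libraries (44.8 CPM or less). It was 3.55-fold higher than in iHep_Foxa3 (1.83 ± 0.52, edgeR adjusted p = 0.01, where 32.7% of all genes were called) and was not called against 48h_Foxa3 (-1.06 ± 0.70, 0.48) or MEF (-1.95 ± 0.72, 0.066). Against MEF it was called with the DESeq2 Wald test (0.024), under the library set term (0.029) and with the compared groups alone (0.013). The set term takes Foxa3del2 as low by Rn7sk alone, while by Rps29 its libraries lie among the high ones. The call under that term rests on this placement, and the other placement was not tested. Against 48h_Foxa3 Ass1 was called with the groups alone (edgeR adjusted p = 4.9e-20), a fit that called 60.4% of all genes. Slc25a15, at 18.5 and 19.0 CPM, was the member called lower against 48h_Foxa3 (-0.76 ± 0.17, 0.014), MEF (-0.57 ± 0.17, 0.024) and iHep_Foxa3 (-0.58 ± 0.14, 0.0029), where 2.98% and 15.8% of all genes were called for the first pair. Without 1 library of either group the first call ended (48h_Foxa3 replicate 1 0.14, replicate 2 0.082, Foxa3del2 replicate 1 0.16, replicate 2 0.13), and so did the second (MEF replicate 1 0.13, replicate 2 0.074, Foxa3del2 replicate 1 0.18, replicate 2 0.11). Cps1 had 0 and 1 count there, Otc 7 and 0 counts and Arg1 3 and 5 counts. Hnf4a was at 732 ± 6.50 CPM. The hepatocyte markers summed to 486 to 511 CPM, nearly all of it Apoa1 (484 ± 17.5 CPM), with 2 of 8 markers over 1 CPM, Alb at 0.0455 ± 0.0644 CPM and Ttr at 0 counts.

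Genes around the cycle were followed as well. These were 28 partners (suppliers of ammonium, bicarbonate and aspartate, transporters, competing users of arginine, and regulators), all tested. Against MEF, 12 were higher and 4 lower in iHep_Foxa1, 9 and 2 in iHep_Foxa2, and 12 and 2 in iHep_Foxa3. In the same comparisons 39.9%, 30.7% and 46.6% of all genes were called in either direction. The partners' median log2 fold change was 0.65, 0.36 and 0.74, against 0.08, 0.06 and 0.05 over all genes. Glul, glutamine synthetase, the other route of ammonium removal and in liver a mark of cells around the central vein, rose to 990 ± 392, 1219 ± 436 and 791 ± 581 CPM from 30.3 ± 6.82 CPM in MEF, and stood at 845 ± 343 CPM in Hep (against MEF 5.03 ± 0.72, 5.33 ± 0.74 and 4.71 ± 0.71, adjusted p = 1.2e-05, 1.4e-05 and 1.5e-05). Gls2, the liver glutaminase that releases ammonium, rose to 5.51 ± 2.91 CPM with Foxa1 (3.38 ± 0.60, edgeR adjusted p = 0.00013). It rose to 4.16 ± 1.58 CPM with Foxa3 (2.98 ± 0.59, 0.00033). With Foxa2 it was at 2.15 ± 0.531 CPM and was also called as higher than in MEF, where it was at 0.525 ± 0.00237 CPM. In Hep Gls2 stood at 1580 ± 123 CPM. Against MEF at 48 h, 2 of the 28 partners were higher with each factor, Hnf4a and Nr3c1, the glucocorticoid receptor, and Slc7a1 was lower with Foxa1 and Foxa3, where 5.25%, 5.48% and 5.21% of all genes were called.

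Other partners set iHep apart from hepatocytes. Slc7a1, the widespread arginine carrier, was at 44.98 ± 9.86, 55.4 ± 7.55 and 58.2 ± 13.9 CPM in iHep and had 3 counts in all in Hep. Oat, ornithine aminotransferase, fell from 321 ± 0.911, 315 ± 4.14 and 321 ± 7.67 CPM at 48 h to 90.4 ± 29.4, 99.3 ± 14.5 and 109 ± 24.7 CPM in iHep (-1.83 ± 0.28, -1.66 ± 0.30 and -1.56 ± 0.28, adjusted p = 2e-05, 0.00023 and 0.00011), and stood at 2494 ± 1266 CPM in Hep. Between factors, Aqp9, an aquaporin that passes urea, was at 6.28 ± 2.17 CPM in iHep_Foxa3 and 0.954 ± 0.794 CPM in iHep_Foxa2 (-2.72 ± 0.52, 0.0013), and at 916 ± 49.8 CPM in Hep.

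The genes with the pattern over the 9 group means closest to each member, by the root mean square difference of centred log2(CPM + 1), were Mat1a, Plg and Gc for Cps1 (0.139 to 0.163), Asgr1, Crp and Hrg for Otc (0.045 to 0.056) and Abcb11, Cyp2c69 and Fgl1 for Arg1 (0.234 to 0.264). Ass1 was nearest to its own near-copy Gm5424 (0.232), then to Slc16a7 (0.612). Asl was nearest to Tmem86b (0.177), Arg2 to Tmem54 (0.094), Nags to Echdc3 (0.159), Slc25a15 to Cux2 (0.158) and Slc25a13 to Nadk2 (0.114). The groups share libraries and the Hep level dominates most of these patterns, so the likeness is a description. At a pseudocount of 0.1 in place of 1, only 3 of the 27 nearest genes were the same.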

How the data were processed

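Poly(A) RNA of 28 libraries in 9 groups was sequenced after stranded library preparation, per the labels' protocols. The deposited files give for each RefSeq transcript an expected count and an FPKM value, both made by the authors. BWA 0.7.12 and the build mm9 are named in the submitters' processing notes, and the sources used here do not give the counting tool, its annotation or its use of strand. The 30710 transcripts were named through RefSeq (30190) and GENCODE (181) tables, and the 339 without a name, 0.609% to 3.21% of the reads, were left out. No mm9 coordinates were converted: chromosome names and promoter windows are those of GRCm38.

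Expected counts were summed to 23712 genes, rounded to whole numbers, filtered with filterByExpr to 16499 genes and scaled with TMM. edgeR 4.0.16 (quasi-likelihood F test, robust, R 4.3.3) was fitted with 1 coefficient per group over all 28 libraries (19 residual degrees of freedom), for 18 comparisons and 3 tests of a difference between factors, and was tested on simulated data. p-values were adjusted with Benjamini-Hochberg over all genes tested in a comparison, and SE is the size of the log2 fold change divided by the square root of F. Fold changes are not given where a group had 1 to 3 counts. The depth of 14592820 to 51743266 reads per library limits genes with few counts, and floors of 3 counts cover counting error only.

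The genes named are the 9 members, partners of the cycle (all counted, up to 5 per comparison by smallest adjusted p), the 3 genes closest in pattern to each member, and cell type markers. The values of 1 partner are not reported here. The members and lists were chosen with earlier results of these data known. Alternatives were DESeq2 1.42.0 size factors and Wald test, limma 3.58.1 on log2(FPKM + 1), no filter, the most abundant transcript, a replicate block, the library set (Rn7sk over 10 CPM or not) as a term or alone, the compared groups alone, and each library left out. Adding Gm5424 to Ass1 was chosen after seeing the data.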

Additional observations from a re-analysis of the deposited data

Results flagged for a closer look

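In the 3 iHep groups, 27 sets of values (9 members in each group) were checked for a library far from the others with Dixon's test at the 95% level, which chance meets in about 1 of 20 sets. It was met in 7. Cps1 in iHep_Foxa1 replicate 1 was at 3.436 CPM, with the next library at 0.773 CPM. Cps1 in iHep_Foxa2 replicate 1 was at 2.154 CPM, with the next at 0.0644 CPM. Nags in iHep_Foxa2 replicate 1 was at 2.30 CPM, with the next at 0.220 CPM. The same library stood apart for the hepatocyte marker Alb, at 914 CPM against 18.6, 14.6 and 3.04 CPM, and iHep_Foxa1 replicate 1 had the highest Alb of the iHep libraries, at 1683 CPM. Otc was at 0.6666 CPM in iHep_Foxa1 replicate 2 (next 0.0929 CPM), at 0.07301 CPM in iHep_Foxa2 replicate 1 (next 0) and at 0.09974 CPM in iHep_Foxa3 replicate 5 (next 0). The last pair rest on 2 and 3 counts with every other library at 0, where the test is met by construction, so they say nothing. Ass1 in iHep_Foxa2 replicate 4 was at 44.75 CPM, with the next at 20.4 CPM. Without iHep_Foxa2 replicate 1, Nags was lower in iHep_Foxa2 than in iHep_Foxa3 (-3.56, edgeR adjusted p = 0.0074), where with it the difference was not called (-0.90 ± 0.82, 0.41).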

How the results depend on the processing

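Of 61 called member results, 39 were called in every alternative that gave a value, 22 lost the call at least once and 0 reversed; 21 DESeq2 values without an adjusted p were left out. Where the count of members called moved by over 1.5 times, the cause was not tested. Percentages give the share of all genes called in the same fit, first in the main fit. For iHep_Foxa3 the low set is left out, as it holds 1 library of that group. For iHep_Foxa1 against MEF (2, 39.9%) the count was 1 with the replicate block (35.5%) and with the library set term (39.4%). It was also 1 in the low set alone (31.3%) and with the compared groups alone (21.4%). For iHep_Foxa3 against MEF (4, 46.6%) it was 2 with size factors (46.8%), 2 with the block (41.4%) and 1 with the set term (38.4%). For iHep_Foxa1 against 48h_Foxa1 (3, 42.0%) it was 1 with the groups alone (25.3%). For iHep_Foxa3 against 48h_Foxa3 (5, 40.6%) it was 3 with limma (41.7%) and 3 with the block (42.4%). For iHep_Foxa1 against iHep_Foxa2 (1, 11.0%) it was 2 with size factors (11.7%), no filter (8.55%) or the most abundant transcript (12.1%). It was 3 with the Wald test (18.8%). It was 0 with the block (1.38%), the set term (0.939%), the low set (0.0242%) or the groups alone (0.0182%). For iHep_Foxa1 against iHep_Foxa3 (2, 8.32%) it was 0 with limma (8.17%) and with the groups alone (0.394%), a fit that called few genes of any kind. It was 1 with the block (9.39%) and with the high set, where a larger share of all genes was called than in the main fit. For iHep_Foxa2 against iHep_Foxa3 (4, 31.1%) it was 1 with the set term (4.85%). For Foxa3del2 against 48h_Foxa3 (1, 2.98%) it was 2 with the set term (23.1%) and 7 with the groups alone (60.4%). With iHep_Foxa3 as comparator it was 2 (32.7%). For Foxa3del2 against MEF (1, 15.8%) it was 2 with the Wald test (23.4%) or the set term (29.3%). It was 0 with limma (24.7%) or no filter (11.6%), and 3 with the groups alone (43.5%). The change with Foxa2 against Foxa3 (0, 0.0%) had 1 call with the Wald test (0.946%). Leaving out 1 library gave 1 to 2, 1 to 3 and 1 to 4 calls for iHep_Foxa1, iHep_Foxa2 and iHep_Foxa3 against MEF, 1 to 3, 2 to 3 and 2 to 5 against 48 h cells, 0 to 2, 1 to 3 and 2 to 4 between factors (Foxa1 and Foxa2, Foxa1 and Foxa3, Foxa2 and Foxa3), and 0 for Foxa3del2 in both comparisons. Where a group is left with 1 library, that library is assumed to vary like the other groups.

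Same-numbered libraries did not deviate together throughout: correlations ran from -0.208 to 0.341 over genes, some pairs being over 0.1, and the numbers were not taken to pair the libraries. Over all genes, the median log2 fold change went with DESeq2's size factors from -0.285 to -0.127 for Hep against MEF and from 0.419 to 0.209 for iHep_Foxa1 against Hep, and no member call reversed. Depth limits the values under 1 CPM, most of those of Cps1, Otc, Arg1, Arg2 and Nags outside Hep, and MEF, Hep, the 48 h groups and Foxa3del2 have 2 libraries each.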
